A study of Mus musculus with 7 samples.

Results

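The class IIa histone deacetylases Hdac4, Hdac5, Hdac7 and Hdac9 and the MEF2 transcription factors Mef2a, Mef2b, Mef2c and Mef2d were followed in spleen B cells of miR-155 transgenic and wild-type mice. The array measures 18194 genes by probe sets that name 1 gene each. Of its 45101 probe sets, the 23 whose annotation names 1 of these 8 genes and no other gene were taken, 8 for the deacetylases and 15 for the MEF2 factors. A further probe set that names Mef2b together with the neighbouring gene Borcs8 was not used. The wild-type group consisted of 4 FVB mice. The transgenic group consisted of 3 FVB mice carrying Eu-miR-155, a transgene built on an immunoglobulin heavy chain enhancer, which is active in the B lineage. Splenic B cells of both groups were enriched magnetically, and 7 arrays were run, 1 for each sample. The labels give no age, no sex and no account of the founder lines.

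Class IIa deacetylases have little catalytic activity of their own and act as signal-controlled corepressors. They bind MEF2 factors on DNA, recruit the NCoR and SMRT complexes with HDAC3, and leave the nucleus bound to 14-3-3 proteins when kinases phosphorylate them. MEF2 factors that are released from them activate transcription. In B cells MEF2C serves survival and proliferation after antigen receptor stimulation, MEF2B drives BCL6 in germinal centres, and BCL6 in turn binds class IIa deacetylases. HDAC4 has been described as a miR-155 target and as a partner of BCL6 in this mouse line, and the comparison addresses how the messenger RNAs of this group of genes stand in it.

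The mature microRNA is shown because its seed, bases 2 to 8 in capitals, sets which messenger RNAs it can pair with. The sequence is the RefSeq entry on GRCm38.p6 at chr16:84714143-84714165, plus strand.
mmu-miR-155-5p: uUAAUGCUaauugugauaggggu
A messenger RNA with a full seed match carries AGCATTA. None of the other mature mouse miRNAs in the table of 1679 names has this seed (0 of them). Transcript sequences were not used here, so no target site of a member was examined.

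The deposited values are GCRMA values on a log2 scale, with a lowest value of 2.17. Values at or under 4 were treated as not above background. Of the 23 probe sets, 21 were above 4 on at least 3 arrays and were tested with limma, and every one of the 8 genes kept at least 1 tested probe set. The other 2, Hdac4 1447566_at and Mef2a 1425426_a_at, were not above 4 on any array.

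The arrays separated by genotype on the first principal component, which held 72.3% of the variance, and transgenic replicate 3 lay farthest from wild type. The markers of B cells were bright on every array, with a list mean of 13.32 to 13.44 in wild type and 12.66 to 13.19 in transgenic arrays over 9 tested genes. Markers of several other blood cells were above the wild-type range on all 3 transgenic arrays. Over all 10 granulocyte genes, tested or not, the list mean was 2.71 to 3.54 in wild type and 7.57 to 8.81 in transgenic arrays, and 7 of the 10 were above 4 on no wild-type array. The mean of 8 erythroid genes was 3.38 to 3.41 and 4.78 to 6.72, with 7 of the 8 above 4 on no wild-type array. That of 8 blood progenitor genes was 3.89 to 4.27 and 5.63 to 7.02. For 7 natural killer genes it was 2.99 to 3.09 and 5.43 to 6.85, and for 7 platelet genes 5.48 to 7.41 and 8.55 to 9.55. The mean of 10 T cell genes was 3.11 to 3.19 and 3.37 to 7.76. The 3 of them tested had a mean of 9.43 on transgenic replicate 3, against 5.50 and 6.06 on replicates 1 and 2. For 7 dendritic cell genes the mean was 5.65 to 6.04 and 6.71 to 8.32. Plasma cells are of the B lineage, and the mean of 8 plasma cell genes was 8.71 to 8.96 and 9.38 to 10.51. Of the 7 plasma cell genes tested, 1 passed as higher and 0 as lower. The mean of 9 cell cycle genes was 5.97 to 7.25 and 8.56 to 10.12. The part of these lists in the members' values was not tested. Xist, which female cells express, read 13.61 to 13.93 on 5 arrays. It was 2.22 and 2.81 on replicates 3 and 4 of the wild type, so sex was not balanced between the groups. Fewer cells of a type and less RNA per cell cannot be told apart in these samples.

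None of the deacetylase probe sets passed the test. Of the 14 tested MEF2 probe sets 13 had a negative change and 1, that of Mef2b, a positive one, and 5 passed. Mef2c passed in 4 of its 5 probe sets, which fell by 0.59 to 0.70 on the log2 scale. Mef2a passed in 1 of its 5 tested probe sets, which fell by 0.22. The other tested probe sets of both genes were also lower but did not pass. Mef2d was lower without passing, and Mef2b was the 1 gene with a higher mean in transgenic arrays beyond the wild-type range. Over all members 5 of 21 tested probe sets passed as lower and 0 as higher at an adjusted p under 0.05, all 5 of them MEF2 probe sets. In the same fit 9.28% of the 20994 probe sets tested passed, 3.65% as lower and 5.63% as higher. The groups did not overlap in 10 of the 21 member probe sets, 9 lower and 1 higher, against 27.5% of all probe sets tested, 13.3% lower and 14.2% higher. An unadjusted limma p under 0.05 was found for 10 of the 21 member probe sets, against 29.7% of all probe sets tested. Probe sets of 1 gene read the same RNA and are not replicates of each other. Taken by brightest probe set, 0 of 4 deacetylase genes and 0 of 4 MEF2 genes passed, against 10.7% of all genes. The median change of the members was -0.23, beside -0.04 for all probe sets tested.

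**Figure D1:**
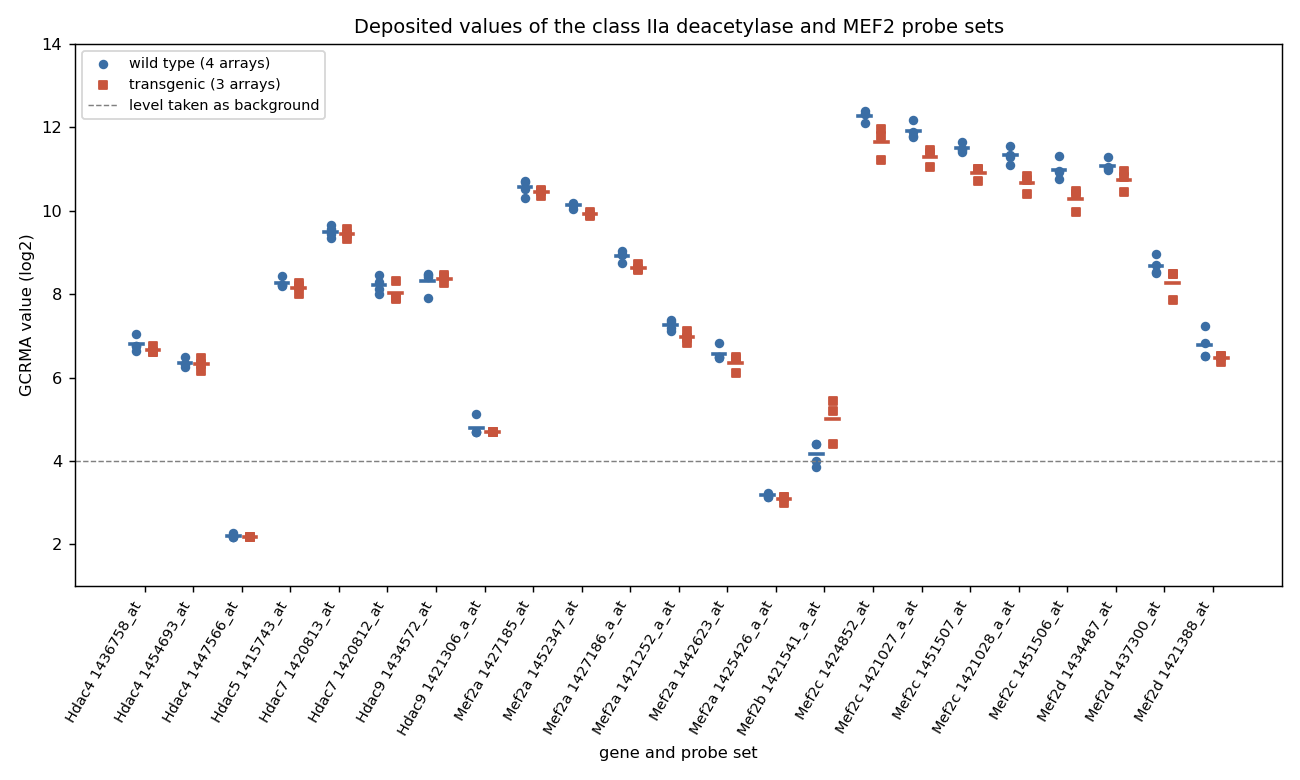
Deposited GCRMA value on a log2 scale (vertical axis) of each of the 23 probe sets (horizontal axis), with 1 point per array, 4 wild type and 3 transgenic, and short lines at the group means. The 5 Mef2c probe sets lie lower in all 3 transgenic arrays than in any wild-type array, and the deacetylase points of the 2 groups overlap. Levels of different probe sets are not comparable.

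The promoters of Mef2c, Mef2a and Hdac5 are shown because Mef2c and Mef2a had the probe sets that passed and because Mef2a and Hdac5 hold a MEF2 site, the element through which MEF2 factors bind DNA. They are RefSeq promoters of GRCm38.p6, from 250 bases before to 50 after the annotated start. All 8 members matched the table, with 14 start sites between them. Capitals mark the MEF2 consensus site and the PU.1 core GAGGAA, searched on both strands. These motifs do not overlap each other here.
Mef2c, GRCm38.p6 chr13:83503784-83504083, plus strand: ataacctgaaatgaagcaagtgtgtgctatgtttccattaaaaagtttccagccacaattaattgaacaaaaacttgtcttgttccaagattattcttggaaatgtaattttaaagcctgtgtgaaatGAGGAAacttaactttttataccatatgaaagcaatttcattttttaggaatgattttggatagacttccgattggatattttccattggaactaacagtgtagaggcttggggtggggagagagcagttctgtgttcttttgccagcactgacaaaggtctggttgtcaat
Mef2c, GRCm38.p6 chr13:83523406-83523705, plus strand: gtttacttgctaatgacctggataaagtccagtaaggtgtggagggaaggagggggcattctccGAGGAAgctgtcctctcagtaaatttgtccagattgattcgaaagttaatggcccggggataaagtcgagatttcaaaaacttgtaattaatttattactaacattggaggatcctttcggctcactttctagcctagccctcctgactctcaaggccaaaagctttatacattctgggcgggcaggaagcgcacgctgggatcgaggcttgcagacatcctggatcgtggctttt
Mef2a, GRCm38.p6 chr7:67372809-67373108, minus strand: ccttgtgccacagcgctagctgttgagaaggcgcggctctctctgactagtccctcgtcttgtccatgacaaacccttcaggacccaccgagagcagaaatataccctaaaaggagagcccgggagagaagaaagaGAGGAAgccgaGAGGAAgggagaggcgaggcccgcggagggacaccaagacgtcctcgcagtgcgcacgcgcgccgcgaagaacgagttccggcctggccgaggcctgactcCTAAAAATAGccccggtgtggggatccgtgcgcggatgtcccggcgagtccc
Hdac5, GRCm38.p6 chr11:102230123-102230422, minus strand: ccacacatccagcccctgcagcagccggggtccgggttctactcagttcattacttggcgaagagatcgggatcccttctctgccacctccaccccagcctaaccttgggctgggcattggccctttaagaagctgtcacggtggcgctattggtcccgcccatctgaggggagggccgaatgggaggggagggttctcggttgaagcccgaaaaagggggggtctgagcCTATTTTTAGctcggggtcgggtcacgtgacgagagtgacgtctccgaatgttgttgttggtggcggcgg
A MEF2 site was found in 2 of the 14 member promoters, starting at -20 from the annotated start in Hdac5 and at -2 in Mef2a, and in 3.19% of all 32851 promoters of this length. The PU.1 core was found in 6 of the 14 and in 28.3% of all. The third Mef2c promoter holds neither. A match describes the letters in this window and shows no binding, and the probe sets do not tell which Mef2c start was used.

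Hdac4, which encodes a corepressor that carries MEF2-binding and 14-3-3-binding regions, was measured by 2 tested probe sets. The brighter, 1436758_at, read 6.65, 7.05, 6.77 and 6.77 on wild-type replicates 1 to 4 and 6.62, 6.61 and 6.76 on transgenic replicates 1 to 3. Wild-type replicate 2 stood above the rest, transgenic replicates 1 and 2 were just below the lowest wild-type array, and replicate 3 was within the wild-type range. The difference was -0.14 ± 0.11 (SE, limma adjusted p = 0.402), with a 95% interval from -0.40 to 0.12. That interval covers transgenic levels of 0.757 to 1.08 times the wild-type level.

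The second Hdac4 probe set, 1454693_at, read 6.26, 6.48, 6.33 and 6.33 in wild type and 6.33, 6.15 and 6.47 in transgenic arrays. The groups overlapped, and the difference was -0.03 (95% interval -0.27 to 0.20, limma adjusted p = 0.848). The third, 1447566_at, was at 2.17 on 6 of the arrays and at 2.27 on wild-type replicate 2, and is uninformative about a difference. The arrays carry no measure of HDAC4 protein.

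Hdac5, a close relative of Hdac4 under the control of calcium-dependent kinases and protein kinase D, had 1 probe set. It read 8.45, 8.23, 8.23 and 8.21 in wild type and 8.27, 8.19 and 8.02 in transgenic arrays. Transgenic replicates 2 and 3 were below the wild-type range, replicate 2 by little, and replicate 1 lay inside it. The difference was -0.12 ± 0.09 (SE, limma adjusted p = 0.407), with an interval from -0.34 to 0.10.

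Hdac7 encodes the class IIa enzyme with well described roles in lymphocyte development, in thymocytes and in B cell precursors. Its brighter probe set, 1420813_at, read 9.56, 9.34, 9.66 and 9.44 in wild type and 9.44, 9.57 and 9.33 in transgenic arrays, and the groups interleaved. The difference was -0.05 (95% interval -0.29 to 0.18, limma adjusted p = 0.732). The other Hdac7 probe set, which shares its source sequence, gave -0.19 (interval -0.54 to 0.17, adjusted p = 0.418), with transgenic replicates 1 and 3 at 7.87 and 7.92 below the wild-type range and replicate 2 at 8.31 inside it.

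Hdac9, itself a described transcriptional target of MEF2, read 8.48, 7.90, 8.405 and 8.46 in wild type and 8.405, 8.26 and 8.46 in transgenic arrays by 1434572_at. Wild-type replicate 2 was the lowest of the 7 arrays, and the transgenic values lay inside the wild-type range. The difference was 0.06 ± 0.15 (SE, limma adjusted p = 0.799), with an interval from -0.30 to 0.43, and without wild-type replicate 2 it was -0.07. The second probe set, 1421306_a_at, read 5.12 on wild-type replicate 1 and the same value of 4.69 on the other 6 arrays. Its change of -0.11 (limma adjusted p = 0.568) thus rests on 1 array and says little about a difference, though it is counted below. Over the 7 tested deacetylase probe sets the changes ran from -0.19 to 0.06, none passed, 0 had an unadjusted p under 0.05, and none separated the groups. These signs depended on scaling. Each array was also shifted by its B cell marker mean, a setting chosen after the data were seen. The same 7 changes were then 0.19 to 0.44 and 0 passed. The marker mean differed by -0.37 between transgenic and wild-type arrays, so the shift raises the change of every probe set by the same amount. The turn of sign is thus not particular to the deacetylases.

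**Figure D2:**
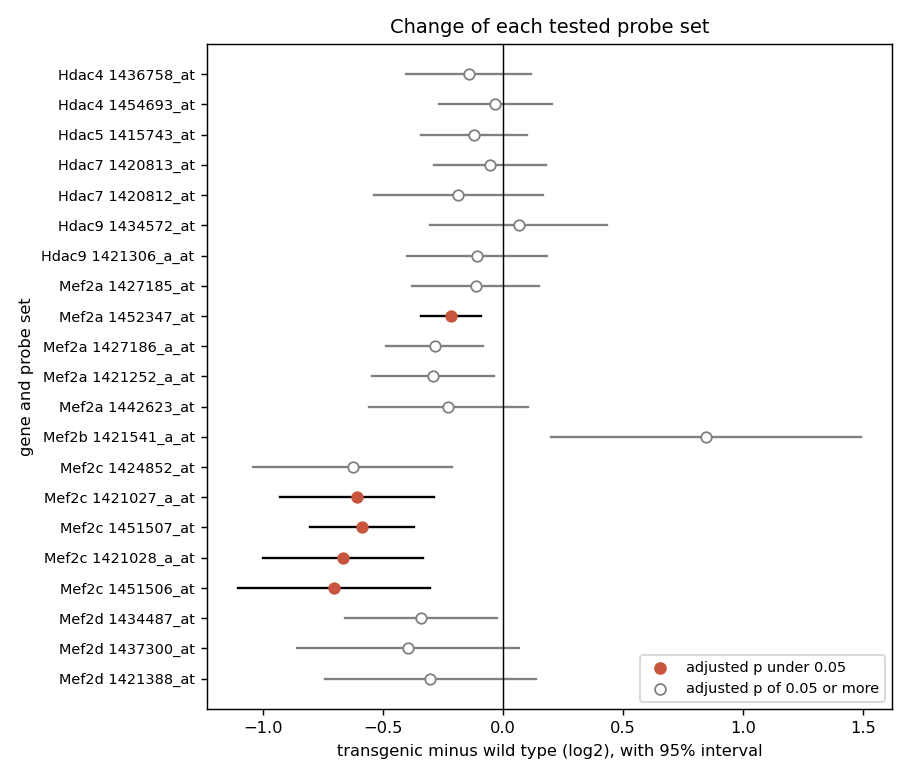
Difference between transgenic and wild-type means on the log2 scale (horizontal axis) with its 95% interval from limma, for the 21 tested probe sets (vertical axis), filled where the adjusted p was under 0.05. All 7 deacetylase intervals include 0, the 5 Mef2c intervals lie below 0, and that of Mef2b lies above it.

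Mef2c, the MEF2 factor best known for its part in B cell proliferation and survival, had the largest decreases among the members. By 1451507_at it read 11.42, 11.64, 11.48 and 11.47 in wild type and 11.01, 11.002 and 10.72 in transgenic arrays. Every transgenic array was below every wild-type array, and the gap between the groups was wider than the range within wild type. The mean was 11.50 ± 0.10 in the 4 wild-type and 10.91 ± 0.16 in the 3 transgenic arrays (SD). By limma it fell by 0.59 ± 0.09 (SE, adjusted p = 0.0204), a 1.503-fold decrease.

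The probe set 1421028_a_at read 11.30, 11.55, 11.35 and 11.10 in wild type and 10.84, 10.75 and 10.39 in transgenic arrays. It fell by 0.67 ± 0.14 (SE, limma adjusted p = 0.0374). By 1421027_a_at the values were 11.79, 12.17, 11.89 and 11.78 against 11.46, 11.39 and 11.05. The fall was 0.61 ± 0.13 (SE, limma adjusted p = 0.0422).

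By 1451506_at Mef2c read 10.93, 11.31, 10.96 and 10.75 against 10.47, 10.40 and 9.98, and the change was -0.70 ± 0.17 (SE, limma adjusted p = 0.0492). The brightest probe set, 1424852_at, read 12.32, 12.39, 12.31 and 12.11 against 11.95, 11.79 and 11.23. Its change of -0.63 ± 0.17 (SE) was of like size but did not pass (limma adjusted p = 0.0710), and its transgenic SD of 0.38 was the widest of the 5. In all 5 probe sets wild-type replicate 2 was the highest array and transgenic replicate 3 the lowest. The probe sets 1424852_at, 1451506_at and 1451507_at are annotated with the same source sequence. Between 1.85% and 3.40% of all probe sets tested had a more negative change than a Mef2c probe set.

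The calls for Mef2c depended on the arrays and settings used, in both directions. Its brightest probe set, 1424852_at, passed under 4 of 20 alternative settings. With quantile normalization all 5 Mef2c probe sets passed. With all 7 arrays but no filter on dim probe sets, or with Xist as a covariate, 0 of its 5 probe sets passed. Its count of passing probe sets fell from 4 to 1 without wild-type replicate 1 and without transgenic replicate 3, and to 0 when transgenic replicate 2 or any of wild-type replicates 2, 3 and 4 was left out. The changes themselves ran from -0.80 to -0.41 over the 5 probe sets when each array was left out in turn, and from -0.55 to -0.41 without transgenic replicate 3. On the 5 arrays with high Xist alone, 2 wild type and 3 transgenic, they were -0.83 to -0.62, and 0 probe sets passed by limma.

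Markers of B cells were lower on the same arrays. All 9 tested B cell genes had a negative change, with a median of -0.32, and 1 of them passed, Fcer2a, which encodes the IgE receptor CD23 (-0.82, limma adjusted p = 0.0451). Relative to the wild-type mean, the 5 Mef2c probe sets were at -0.51 to -0.33, -0.58 to -0.49 and -1.06 to -0.78 on transgenic replicates 1, 2 and 3, where the mean of the B cell markers was at -0.19, -0.22 and -0.71. With the same shift by B cell markers the Mef2c changes were -0.33 to -0.21 and 0 of the 5 passed (limma adjusted p from 0.126 to 0.201). This shift also moved the median change of all probe sets tested from -0.04 to 0.33. Whether the lower B cell marker level accounts for the fall of Mef2c was not tested.

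**Figure D3:**
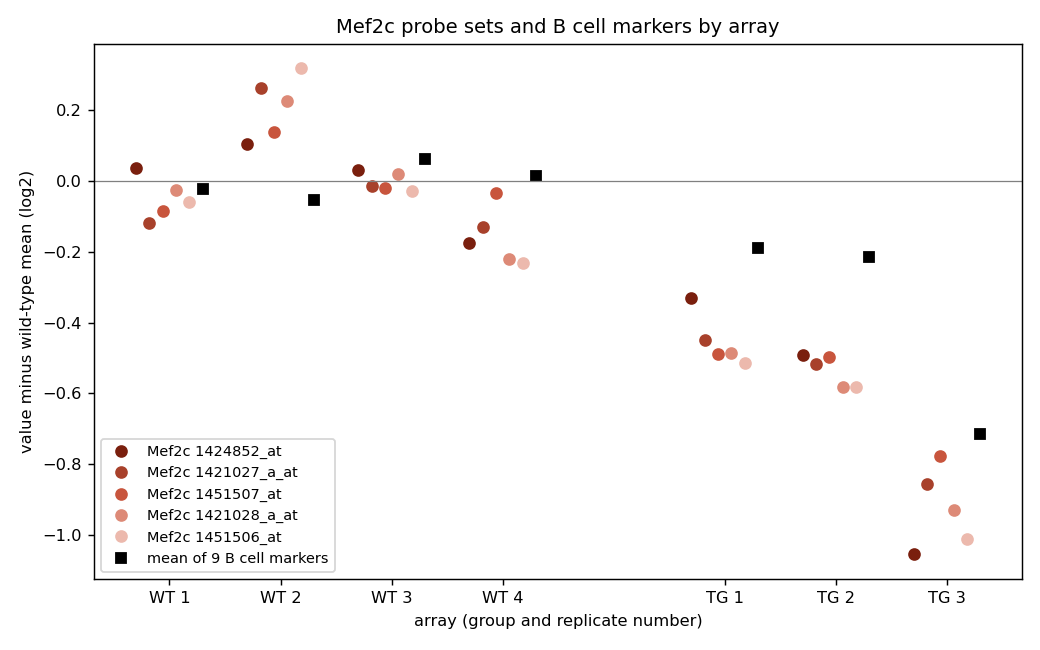
Level relative to the wild-type mean on the log2 scale (vertical axis) on each array (horizontal axis, WT for wild type and TG for transgenic) for the 5 Mef2c probe sets (circles) and the mean of 9 B cell markers (squares). The Mef2c points lie below the B cell marker mean on every transgenic array, from -0.51 to -0.33 on replicate 1 against -0.19 for the markers, and both are lowest on transgenic replicate 3.

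Mef2a encodes a broadly expressed MEF2 factor. By 1452347_at it read 10.19, 10.15, 10.05 and 10.14 in wild type and 9.96, 9.88 and 9.90 in transgenic arrays, and the groups did not overlap. The change of -0.22 ± 0.05 (SE) passed narrowly (limma adjusted p = 0.04999), and it turned to 0.16 with arrays shifted by the B cell marker mean. This call was lost under 18 of 20 alternative settings, counting that shift. Its promoter, shown above the values, is 1 of the 2 with a MEF2 site.

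The brightest Mef2a probe set, 1427185_at, read 10.72, 10.52, 10.30 and 10.70 against 10.47, 10.36 and 10.51, with the transgenic arrays inside the wild-type range. Its difference was -0.11 (95% interval -0.38 to 0.15, limma adjusted p = 0.503). The probe set 1427186_a_at read 8.93, 9.05, 8.75 and 8.96 against 8.58, 8.59 and 8.73, which do not overlap, and did not pass (-0.28, adjusted p = 0.0839). The remaining 2 tested probe sets gave -0.29 and -0.23 with adjusted p of 0.128 and 0.305. All 5 tested Mef2a changes were thus negative on the deposited scale and positive, 0.08 to 0.26, after the shift by B cell markers. That shift raises the change of every probe set by the same amount, whatever the gene.

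Mef2d, which encodes a MEF2 factor that is widely expressed in blood cells, did not pass in any of its 3 probe sets. The brightest, 1434487_at, read 10.97, 11.02, 11.28 and 11.05 in wild type and 10.96, 10.81 and 10.46 in transgenic arrays. Replicate 1 of the transgenic group lay 0.01 below the lowest wild-type value, so the groups barely separate. The difference was -0.34 ± 0.13 (SE, limma adjusted p = 0.148), and the other probe sets gave -0.40 and -0.30 with adjusted p of 0.220 and 0.305. The dimmest, 1421388_at, had the same value of 6.52 on 4 arrays. After the shift by B cell markers, which raises all probe sets alike, the 3 changes were -0.02 to 0.07.

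Mef2b, a factor of germinal centre B cells, was near background. The probe set Mef2b 1421541_a_at read 4.403, 4.403, 3.87 and 4.003 in wild type and 5.43, 5.21 and 4.405 in transgenic arrays. Transgenic replicates 1 and 2 were above all wild-type arrays, while replicate 3 exceeded the highest of them by 0.002. The difference of 0.85 ± 0.27 (SE) did not pass (limma adjusted p = 0.0996), with an interval from 0.20 to 1.49. Without transgenic replicate 3 it was 1.15 and passed (limma adjusted p = 0.0304), and over the alternatives it kept its sign, from 0.58 to 1.22.

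The proteins that act with the members were described from lists of 73 other genes, 61 of them tested. Of these 1 passed as lower, Bcl6, and 0 as higher, beside 10.7% of all 9517 genes tested by their brightest probe set, 2.56% lower and 8.11% higher. The groups did not overlap for 24 of the 61, against 29.9% of all genes. Their median change was -0.04, beside 0.00 for all genes. Bcl6, which encodes the repressor that recruits class IIa deacetylases in germinal centre B cells, read 10.39, 10.42, 10.56 and 10.61 in wild type and 9.78, 9.65 and 9.18 in transgenic arrays. It fell by 0.96 ± 0.15 (SE, limma adjusted p = 0.0205). BCL6 is a gene the study of this line asked about, so its direction is not independent evidence, and its adjusted p was 0.0577 to 0.0745 when transgenic replicate 2 or any of wild-type replicates 2, 3 and 4 was left out. The call was also lost with no filter on dim probe sets (limma adjusted p = 0.0747), with Xist as a covariate (0.0820), on the 5 arrays with high Xist (0.153) and with the replicate number as a block (0.171). With the shift by B cell markers Bcl6 was at -0.58 and still passed (limma adjusted p = 0.0165).

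Of the 8 tested corepressor partners, Bcl6 alone passed. Bcor, which encodes a BCL6 corepressor, was 0.27 lower (limma adjusted p = 0.0580), Cbx5, encoding the heterochromatin protein HP1 alpha, was 0.29 higher (0.126) and Hdac3, the catalytic partner of class IIa enzymes, was 0.11 higher (0.225). The deacetylases of other classes gave 0 calls among 7 genes, with a median change of 0.10. Hdac10 had the smallest p of them (-0.62, limma adjusted p = 0.0922), with wild type at 10.14 to 10.69 and transgenic arrays at 9.34 to 9.99. Hdac2 and Hdac6 were at 0.21 and 0.10 with adjusted p of 0.225 and 0.537.

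Kinases that send class IIa deacetylases out of the nucleus gave 0 calls among 12 tested genes and a median change of -0.08. Camk1d, a calcium-dependent kinase gene, missed the threshold (-0.35, limma adjusted p = 0.0504), as did Mark2 (-0.36, 0.0587), Camk2g (0.38, 0.0776) and Mark3 (-0.16, 0.0815). Among 7 genes of 14-3-3 proteins, which hold phosphorylated deacetylases in the cytoplasm, 0 passed and the median was 0.03. The 4 with the smallest p were Ywhah (0.34), Ywhag (0.15), Sfn (-0.39) and Ywhae (0.09), with adjusted p from 0.184 to 0.489.

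Activators and coactivators of MEF2 gave 0 calls among 15 genes, with a median of -0.03. Map2k3, which activates p38, was 0.50 higher (limma adjusted p = 0.0513), and Mapk14, the p38 kinase that phosphorylates MEF2C, was 0.41 higher (0.0947). Carm1, a methyltransferase coactivator, was 0.35 higher (0.0568) and Crebbp, an acetyltransferase, 0.29 lower (-0.29, 0.0766). The 5 MEF2 inhibitors gave 0 calls and a median of -0.19, with Dyrk1a at -0.22 (0.0628), Pias1 at -0.24 (0.0710), Cabin1 at -0.19 (0.180) and Cdk5 at 0.07 (0.513).

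Among described MEF2 target genes 1 of 10 passed as lower, again Bcl6, and the list includes Hdac9 itself. The median change was -0.29. Klf6 was at -0.36 (limma adjusted p = 0.0526) and Egr3, an immediate early factor, at -0.62 (0.106). Hdac9 and Jun had positive changes of 0.06 and 0.32 without passing. For Jun, transgenic replicates 1 and 2, at 7.03 and 7.32, were below the wild-type range of 7.64 to 8.48. Transgenic replicate 3 was at 10.61 and alone made its mean change positive. Klf4 was at 4.94 to 5.87 in wild type and 6.17, 7.004 and 8.17 in transgenic arrays, and did not pass (1.595, adjusted p = 0.0819). Klf4 is also a gene of myeloid cells, and the granulocyte list was higher on the same arrays. The macrophage list was mixed: over all 8 of its genes the mean was 4.06 to 4.86 in wild type and 4.80 to 5.79 in transgenic arrays, which overlap. Of its 4 tested genes Spic passed as lower (-0.99, limma adjusted p = 0.0163) and Cd68 as higher (2.63, 0.0259). Their part in these values was not tested.

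**Figure D4:**
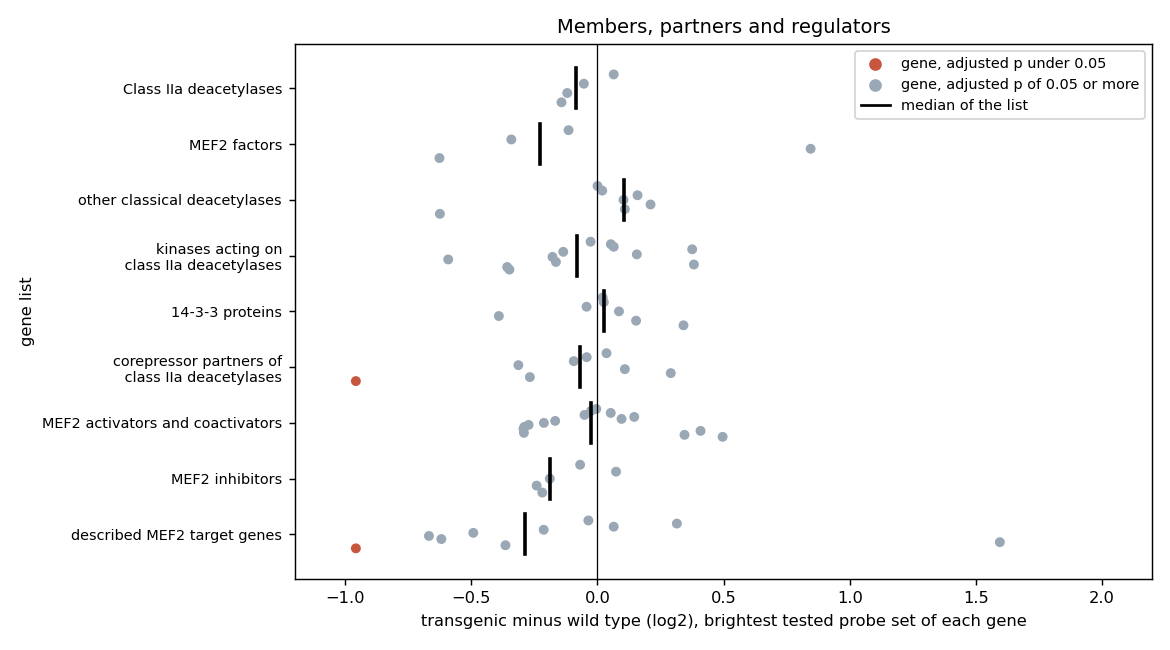
Change on the log2 scale (horizontal axis) of the brightest tested probe set of each gene in the lists (vertical axis), with a vertical bar at each list's median and filled red points for genes with an adjusted p under 0.05. Bcl6, at -0.96 in both lists that hold it, is the 1 gene that passed, and the medians of the partner and regulator lists lie between -0.29 and 0.10.

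The genes whose profile over the 7 arrays was most like that of Hdac4 were Etv3, Kif5b and Zfp952, with a mean absolute difference between centred profiles of 0.04, 0.04 and 0.05 on the log2 scale, out of 9509 genes. None of them passed the test either. No member passed by its brightest probe set, so no such comparison was made for the others.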

How the data were processed

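Spleen B cells of 4 wild-type and 3 transgenic mice were measured on 1 array each, and the design text counts mice. Nothing else says that samples are separate animals, so p-values measure the spread between these samples. The submitters' processing notes name GCRMA (version not given in the sources used here) for the deposited log2 values. This method subtracts background by probe sequence and equalises array distributions, so dim differences are compressed and some values repeat. The highest value is 16.36. Batches were not analysed here, and the number of arrays limits the precision.

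Probe sets were named through the platform annotation, and Entrez identifiers were looked up in RefSeq (GRCm38.p6) for 34754 of the 34958 that name 1 gene, which changed 0 symbols. Of 45101 probe sets, 64 are controls. Those above 4 on at least 3 arrays, 20994, were fitted with limma 3.58.1 in R 4.3.3 (lmFit, eBayes with trend, two-sided), with Benjamini-Hochberg adjustment over all of them and a threshold of 0.05. The brightest probe set stands for a gene in lists, and lists are described by counts and medians. The named genes are all members, of each list the genes that passed and up to 4 with the smallest p, and the nearest profiles of Hdac4 and of members passing by their brightest probe set. The members, lists and settings were chosen with earlier results of these data known. On simulated data, 69.0% of changes of 1 and 93.0% of changes of 2 on the log2 scale were called. There were 4 false calls among 20994 probe sets. All member changes were smaller than these sizes, so the simulation does not tell how often such changes would be called.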

Additional observations from a re-analysis of the deposited data

Results flagged for a closer look

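Of 49 wild-type groups checked, those of the member probe sets and the named genes of the lists, 7 had 1 array far from the other 3 by Dixon's criterion for 4 values. Chance gives about 1 in 20 for independent values without ties. For Hdac4 1447566_at and Hdac9 1421306_a_at the other 3 arrays were tied, so any departure is flagged. All groups also share the same 4 arrays, so the count cannot be set against that rate. Hdac5 was at 8.45 on wild-type replicate 1 with the others at 8.21 to 8.23. Hdac9 was at 7.90 on wild-type replicate 2 by 1434572_at, with the others at 8.405 to 8.48. By 1421306_a_at Hdac9 was at 5.12 on wild-type replicate 1, with the others at 4.69. Mef2a 1442623_at was at 6.84 on wild-type replicate 3, with the others at 6.46 to 6.51. The Hdac4 probe set 1447566_at, below background throughout, was at 2.27 on wild-type replicate 2 and 2.17 on the others. Cbx5 was at 9.19 on wild-type replicate 4, with the others at 9.38 to 9.42, and Map2k3 at 8.82 on wild-type replicate 1, with the others at 9.21 to 9.27.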

How the results depend on the processing

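Of 418 member probe-set results under alternatives, 322 kept direction and side of the threshold, 66 lost the call, 9 gained it and 21 reversed, 1 of which had been called. The 26 named genes of the lists gave 519, of which 459 were kept, 8 lost, 42 gained and 10 reversed. Deacetylase probe sets gave 0 calls under all 20 alternatives. The 5 lower member calls became 0 with no filter on dim probe sets, with the replicate block (wild-type replicate 4 left out), with Xist as a covariate, on the 5 arrays with Xist above 10 and with the shift by B cell markers, 1 without transgenic replicate 3 together with wild-type replicate 4, 3 with values under 4 set at 4 or no intensity trend, and 8 with array weights (and 1 higher), whose iteration stopped early. Mef2c calls were 0 in the same 5 settings and 1 without those 2 arrays. Leaving out each array gave 0 to 4 lower member calls, 0 to 4 of Mef2c and 0 to 1 higher. Deviations of same-numbered arrays from their group means correlated at -0.04, -0.14 and -0.29, and those of differently numbered arrays at -0.17 to 0.26. So few arrays cannot settle whether replicate numbers pair the samples. The cause of the differences between settings was not tested.

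Member probe sets with a higher non-overlapping transgenic group went from 1 to 0 with the stricter filter (above 6) and with quantile normalization. With the B cell marker shift they were 2, with 1 lower and 1 member called higher. Pathway genes called lower and higher were 4 and 2 with the stricter filter and with quantile normalization, 2 and 1 with centred arrays, 3 and 1 with the robust prior, 13 and 6 with array weights, and 0 lower with no filter, the replicate block, the Xist covariate and the 5 arrays. Leaving out each array gave 0 to 3 lower and 0 to 1 higher, and the B cell marker shift 8 higher.

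The median of other classical deacetylases was 0.053 with array weights, 0.055 with the replicate block, 0.045 without the 2 arrays, 0.019 with the mean over probe sets, and 0.045 to 0.093 when each array was left out. MEF2 inhibitors were at -0.13 with array weights and -0.12 with the mean over probe sets, and corepressor partners at -0.14 with that mean. Without the 2 arrays the kinases were at 0.019 and MEF2 activators at 0.040, and the activators ranged from -0.093 to 0.025 when each array was left out. With the B cell marker shift the medians were 0.48 for other deacetylases, 0.29 for kinases, 0.40 for 14-3-3 proteins, 0.31 for corepressor partners, 0.35 for activators, 0.18 for inhibitors and 0.085 for targets, with all probe sets at 0.33.

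The B cell marker shift turned Hdac4 1436758_at to 0.23 and 1454693_at to 0.34, Hdac5 1415743_at to 0.25, Hdac7 1420812_at to 0.19 and 1420813_at to 0.32, Hdac9 1421306_a_at to 0.27, and Mef2d 1421388_at to 0.070 and 1434487_at to 0.032. It turned Mef2a 1421252_a_at to 0.081, 1427185_at to 0.26, 1427186_a_at to 0.088, 1442623_at to 0.15 and 1452347_at to 0.16. Among list genes it turned Bcor to 0.11, Klf6 to 0.0089, Camk1d to 0.025, Mark2 to 0.016, Mark3 to 0.21, Crebbp to 0.082, Dyrk1a to 0.15, Pias1 to 0.13 and Cabin1 to 0.18. Array weights turned Hdac7 1420812_at to 0.047 and 1420813_at to 0.090, and the Xist covariate turned 1420813_at to 0.00017. Leaving out those 2 arrays turned Ywhae to -0.030. When each array was left out, Hdac4 1454693_at ranged from -0.109 to 0.051 (0.013 without wild-type replicate 2, 0.051 without transgenic replicate 2) and Hdac9 1434572_at from -0.071 to 0.123. Hdac7 1420813_at turned to 1.2e-05 without wild-type replicate 3 and 0.0056 without transgenic replicate 3.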

Other observations

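Repeated values were common: 40.8% of all tested probe sets and 6 of the 21 tested member probe sets had the same value on at least 2 arrays.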
